A study of Mus musculus with 12 samples.

Results

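The somatic cells of the fetal ovary were compared with those of the fetal testis over autosomal genes. Of the 12 libraries of the series, 6 are soma: 3 of female soma and 3 of male soma. Of the 12845 genes in the deposited tables, 12314 lie on an autosome and were kept, and genes on the X or Y or without a location were left out. All groups come from mouse gonads at E13.5, from dams mated to males carrying an Oct4GFP reporter, on an Oct4GFPxICR background. Oct4 drives green fluorescent protein in germ cells, so the sort left the soma as the GFP-negative fraction. That fraction is defined by the absence of a signal and holds every cell of the dissected gonad that was not a fluorescent germ cell. The labels do not say whether the 3 libraries of a group came from separate litters or pools, so the p-values measure the spread between these libraries. External control RNA was added at 4 uL of a diluted mix per 10000 cells, which lets levels be set relative to cells or to reads. The other 6 libraries are germ cells of the same gonads and entered the statistical fit to help estimate the spread.

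The gonad starts as one bipotential primordium. In XY gonads the supporting cells become Sertoli cells through Sry and Sox9, enclose the germ cells in cords, and secrete anti-Müllerian hormone and desert hedgehog. Interstitial cells then become fetal Leydig cells, which make androgen from cholesterol. In XX gonads the supporting cells become pregranulosa cells, in which Wnt4, Rspo1 and Foxl2 act against the testis programme, and fetal ovaries make little steroid.

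Between 6518166 and 24791414 reads per soma library stood behind the values. Levels are given as CPM, each gene's share of the reads in the table. Differences are log2, female minus male, from the table that the authors scaled to read depth, fitted with limma and called at an adjusted p of 0.05. By read depth, 1616 autosomal genes (13.1%) were higher in female soma and 1351 (11.0%) were lower, with a median difference over all of them of 0.01. These shares are the background for every count of list members below. The share of all autosomal genes without overlap between the groups was not counted. A lack of overlap is therefore given below only as a description of single genes. Read depth differences of weakly read genes are compressed by the deposited transform. Among genes with a log2 difference over 1 in the whole reads, the read depth difference was a median 0.43 of it below 100 mean reads and 0.81 from 1000 mean reads upward.

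The soma libraries also differed in markers of other cells. Summed over 24 germ cell genes, female soma replicates 1, 2 and 3 stood at 244, 484 and 63.8 CPM, against 22.5 to 28.3 in male soma and about 7772 in female germ cells. Nanos2 was the 1 germ cell gene at 0 reads in all 3 female libraries. Dazl, an RNA-binding germ cell factor, read 40.5, 98.2 and 5.21 CPM in female soma and 4.15, 1.73 and 2.72 in male soma. Female replicate 3 was the lowest female library and lay above all male libraries on both measures.

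Dbh, dopamine beta-hydroxylase of catecholamine synthesis, also varied within the groups. It read 138, 242 and 2.03 CPM in female soma and 0, 0.161 and 18.8 in male soma. Its difference of 5.20 ± 1.55 (SE) had an adjusted p of 0.026, and it was 0.78 (adjusted p = 0.83) without female replicates 1 and 2. The call was also lost without male replicate 1 (0.117), male replicate 2 (0.102), female replicate 1 (0.104) or female replicate 2 (0.109), with the soma alone (0.0766) and in the whole reads (0.387). Erythroid genes summed to 17131 to 28735 CPM in female soma and 3228 to 8409 in male soma. Macrophage genes summed to 630 to 954 and 293 to 415 CPM, and mesonephric tubule genes to 134 to 157 and 52.2 to 70.0 CPM. Of the macrophage list, 13 of 16 genes passed as higher in female soma, 7 did without male replicate 1 or without female replicate 2, and 1 did without female replicates 1 and 2. Counts given for the lists are therefore repeated without those libraries, a check added once the data were known that leaves 1 female soma library. The part of these other cells in the results was not tested.

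**Figure D1:**
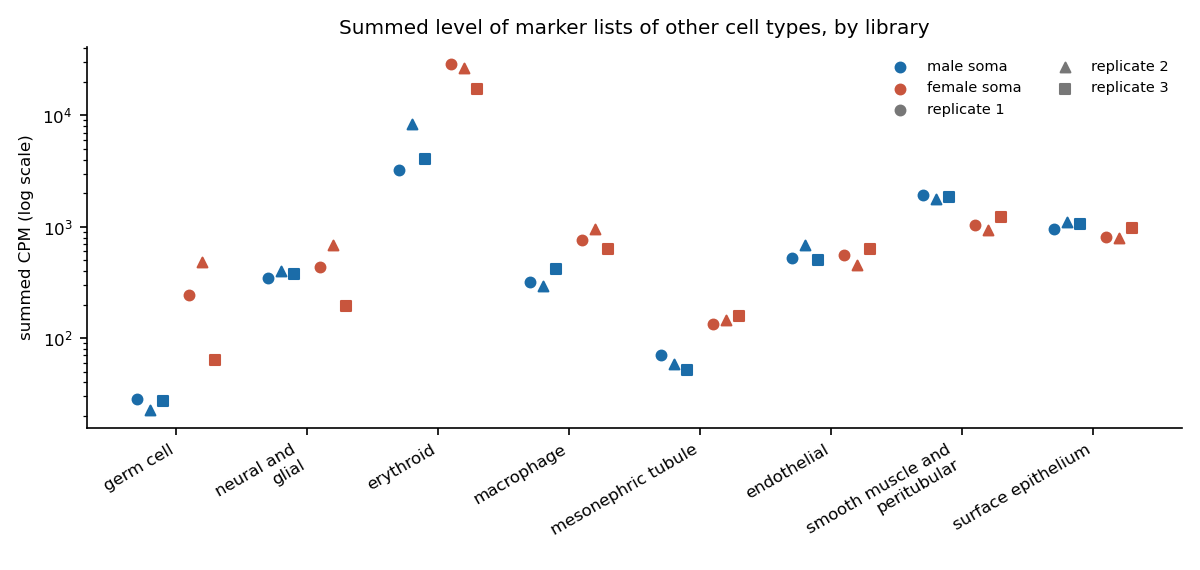
Summed CPM on a log axis of marker lists of 8 other cell types, 1 point per soma library, with colour for the group and shape for the replicate. Germ cell, erythroid, macrophage and mesonephric sums lay higher in all 3 female libraries than in the male ones. Female replicate 3 was the lowest of the female libraries for germ cell, neural, erythroid and macrophage genes.

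The marker genes separated the groups in every library. Foxl2, the forkhead factor that maintains granulosa fate (ENSMUSG00000050397.4, chr9:98955288-98958543, GRCm38), read 71.2, 63.7 and 51.5 CPM in female soma and 1.09, 0.766 and 1.74 in male soma. Fst, the activin antagonist follistatin (ENSMUSG00000021765.9, chr13:114452290-114458951), read 97.2, 109 and 85.6 CPM against 2.29, 2.50 and 4.24. Both rose, by 3.98 ± 0.31 (SE, adjusted p = 5.8e-07) for Foxl2 and 3.71 ± 0.27 (adjusted p = 2.8e-07) for Fst. Every female library exceeded every male one for both genes.

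Male soma carried the opposite pair. Amh, the Sertoli hormone that removes the Müllerian duct (ENSMUSG00000035262.5, chr10:80805243-80807648), read 479, 385 and 446 CPM in male soma and 0.556, 2.45 and 1.02 in female soma, a 325-fold ratio of means. Cyp17a1, the 17-alpha-hydroxylase of androgen synthesis (ENSMUSG00000003555.8, chr19:46667165-46673172), read 1968, 1335 and 1955 CPM against 0.889, 1.69 and 0.763, a 1574-fold ratio. Cyp17a1 had the most negative read depth difference among the named genes, at -8.84 ± 0.34 (adjusted p = 9.1e-10), and Amh followed Cyp11a1 at -6.64 ± 0.31 (adjusted p = 5.6e-09). The female means were 1.34 CPM for Amh and 1.11 CPM for Cyp17a1, where 3 reads over the 3 female libraries correspond to 0.128 CPM. In bulk libraries, fewer cells of a type and less RNA per cell cannot be told apart.

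**Figure D2:**
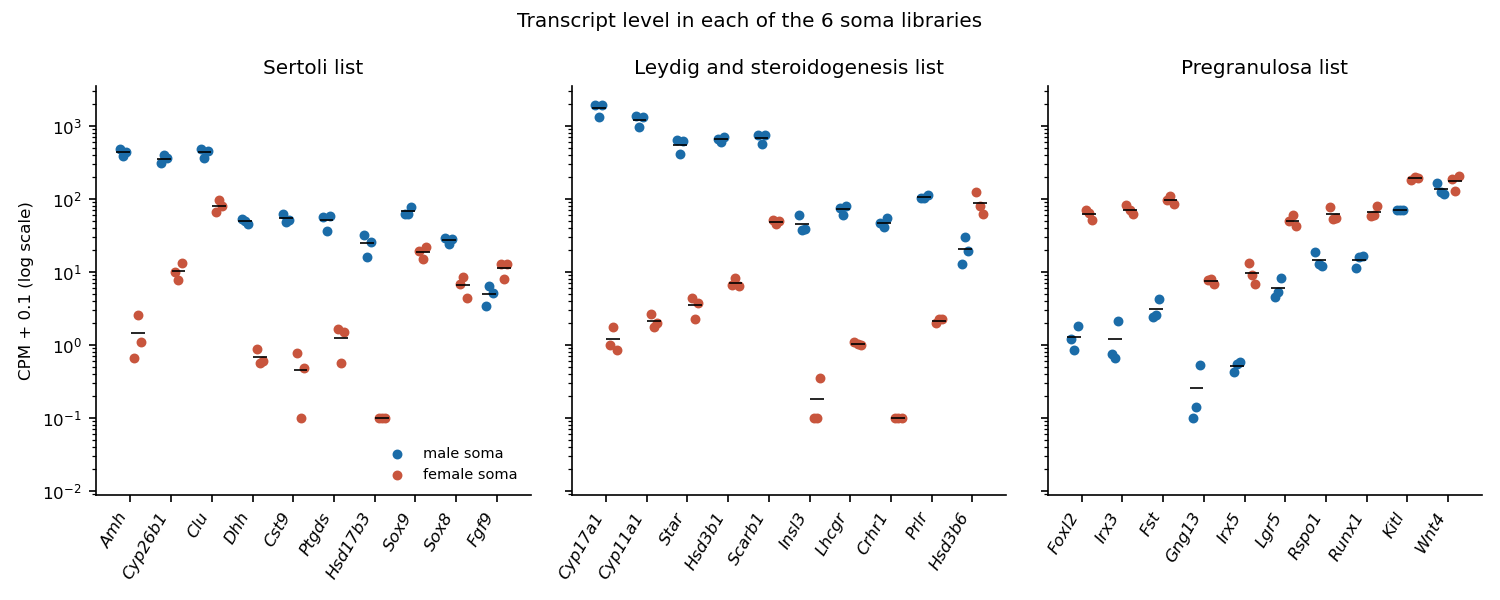
CPM plus 0.1 on a log axis for 10 members of each of the Sertoli, Leydig and pregranulosa lists, with 1 point per library (male soma left, female soma right of each name) and bars at the group mean. A point at the bottom value of 0.1 is a library with 0 reads, as for Crhr1 and Hsd17b3 in all 3 female libraries.

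The Sertoli list was lower in female soma almost throughout. Of 28 autosomal genes measured, 23 fell, 2 rose and 3 did not pass, with a median difference of -2.01. Their summed level was 2319 to 2595 CPM in male soma and 374 to 448 CPM in female soma. Without female replicates 1 and 2, 24 fell. The 3 genes that did not pass were Sox10 (-0.26), Etv5 (0.04) and Cldn11 (-0.05).

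Several Sertoli products had wide gaps. Dhh, desert hedgehog, which signals from Sertoli to interstitial cells, read 53.3, 50.2 and 45.0 CPM in male soma and 0.778, 0.460 and 0.509 in female soma. Cst9, a cystatin known from Sertoli cells, read 62.6, 48.8 and 51.0 CPM against 0.667, 0 and 0.381. Ptgds, the prostaglandin D synthase, read 57.6, 36.4 and 58.6 CPM against 1.56, 0.460 and 1.40. All 3 were separated by library, with read depth differences of -4.06 ± 0.23, -4.59 ± 0.28 and -3.65 ± 0.25. Hsd17b3, which converts androstenedione to testosterone, read 32.0, 15.9 and 26.0 CPM in male soma and 0 reads in each female library. Its mean was at least 192-fold higher in male soma, taking 3 reads over the female group as the limit. With means of 1.55 CPM in male and 0.05 CPM in female germ cells, Hsd17b3 met the entry level through male soma. Clu, clusterin, read 493, 369 and 457 CPM in male soma and kept 67.4 to 96.5 CPM in female soma.

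Sox9, Sox8 and Dmrt1, transcription factors of the same list, fell with smaller ratios of means than Dhh or Cst9. Sox9, the factor that directs Sertoli fate, read 62.4, 63.0 and 77.9 CPM in male soma and 19.2, 14.9 and 21.6 in female soma, a 3.65-fold ratio (difference -1.45 ± 0.23, adjusted p = 0.00035). Sox8, which acts beside Sox9, read 28.9, 24.4 and 28.2 CPM against 6.67, 8.44 and 4.32. Dmrt1, a factor that supports the male programme in Sertoli and germ cells, read 8.52, 7.10 and 9.52 CPM against 5.33, 3.38 and 1.27. Female values were above the floor for all 3, and for none did the groups overlap. Dmrt1 had means of 186 CPM in male and 141 CPM in female germ cells. The part of germ cells in its soma level was not tested.

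The list members that rose in female soma were Fgf9 and Trf. Fgf9, a growth factor that sustains Sox9 in the XY gonad, read 13.0, 7.82 and 12.8 CPM in female soma and 3.28, 6.41 and 5.06 in male soma. Its difference was 0.61 ± 0.18 (adjusted p = 0.026). The adjusted p was 0.113 without male replicate 1, 0.0621 without male replicate 3, 0.0925 without female replicate 1 and 0.0688 without female replicate 3. Trf, the iron carrier transferrin, differed by 0.89 ± 0.26 (adjusted p = 0.024). It missed the threshold without male replicate 1 (0.108), male replicate 3 (0.0545) and female replicate 2 (0.104). Neither passed without female replicates 1 and 2 (0.0733 for Fgf9 and 0.387 for Trf).

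Genes of fetal Leydig cells and steroid synthesis showed the lowest median of the 24 lists, at -2.26. Of 26 measured genes 22 fell, 2 rose and 2 did not pass. Without female replicates 1 and 2, 21 fell and 1 rose. Summed levels were 5908 to 7544 CPM in male soma and 669 to 764 CPM in female soma. Cholesterol enters the mitochondrion through Star, is cleaved by Cyp11a1 with the electron carriers Fdx1 and Fdxr, and is then processed by Hsd3b1 and Cyp17a1.

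Each of these steps was separated between the groups. Star read 640, 409 and 620 CPM in male soma and 4.33, 2.15 and 3.69 in female soma. Cyp11a1 read 1365, 983 and 1321 CPM against 2.56, 1.69 and 1.91. Hsd3b1 read 673, 608 and 704 CPM against 6.56, 8.13 and 6.36. The ratios of means were 164, 596 and 94.3. Fdx1 and Fdxr, which serve other mitochondrial enzymes as well, had ratios of 10.3 and 6.87, with 17.8 to 21.8 and 36.9 to 50.1 CPM left in female soma. Per kilobase of exon in male soma, the levels of the 4 main genes ran from Cyp17a1 (633 CPM per kb) through Hsd3b1 (357) and Cyp11a1 (255) to Star (135). Male replicate 2 was the lowest of the male libraries for all 4.

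Hormone inputs and outputs of Leydig cells followed. Lhcgr, the luteinizing hormone receptor, read 76.3, 59.7 and 81.1 CPM in male soma and 0.890 to 1.00 CPM in female soma. Prlr, the prolactin receptor, read 105, 104 and 115 CPM against 1.89 to 2.16. Crhr1, the receptor for corticotropin-releasing hormone, read 46.4, 41.6 and 54.8 CPM and 0 reads in female soma, a ratio of at least 371. Insl3, the peptide that guides testis descent, read 60.3, 38.2 and 39.3 CPM in male soma and had 0, 0 and 0.254 CPM in female soma. For each of these 4 genes every male library exceeded every female one. Scarb1, the lipoprotein receptor for cholesterol uptake, kept 45.1 to 51.1 CPM in female soma against 562 to 762 in male soma.

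Genes with an adrenal role were among those measured. Cyp11b1, the 11-beta-hydroxylase, read 20.9, 6.86 and 17.4 CPM in male soma and 0 reads in female soma, a ratio of at least 117. Like Hsd17b3 and Crhr1, it met the entry level of 5.07 CPM without female soma. Cyp21a1, the 21-hydroxylase, read 11.8, 5.61 and 13.3 CPM against 0.556, 0 and 0, and its reads can be shared with a near-identical pseudogene. Per kilobase of exon they stood at 4.75 and 4.78 CPM in male soma, against 633 for Cyp17a1.

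Hsd3b6 and Lhx2 went the other way. Hsd3b6, a second 3-beta-hydroxysteroid dehydrogenase, read 127, 79.5 and 62.4 CPM in female soma and 12.7, 30.3 and 19.4 in male soma, a difference of 1.70 ± 0.25 (adjusted p = 0.00021). Per cell it was 1.23 (adjusted p = 0.13). Hsd3b1 and Hsd3b6 are close paralogs, and how their reads were assigned was not stated. Lhx2, a LIM-homeobox factor, read 1.22, 1.99 and 1.91 CPM against 0, 0.282 and 0.870, with an adjusted p of 0.0095 that was 0.0595 in the whole reads. The genes that did not pass were Ctsc (0.55, adjusted p = 0.20) and Soat1 (0.17, adjusted p = 0.30). With the soma libraries fitted alone Ctsc had an adjusted p of 0.0059.

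To show the DNA around these genes, sequences upstream of the start site are printed for a member of each lineage. They come from the RefSeq promoter table on GRCm38.p6, without bases that GENCODE places in an exon, and capitals mark the only matches to the searched letters. Hsd3b1 and Insl3 stand for the Leydig genes, Cst9 for Sertoli genes and Rspo1 for pregranulosa genes.
Hsd3b1 (chr3:98859795-98860044, minus strand): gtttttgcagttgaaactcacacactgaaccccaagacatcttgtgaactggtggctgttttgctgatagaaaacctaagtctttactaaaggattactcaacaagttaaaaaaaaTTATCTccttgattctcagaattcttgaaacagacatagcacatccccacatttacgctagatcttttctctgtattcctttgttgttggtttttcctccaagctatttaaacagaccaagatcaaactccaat
Insl3 (chr8:71689002-71689213, plus strand): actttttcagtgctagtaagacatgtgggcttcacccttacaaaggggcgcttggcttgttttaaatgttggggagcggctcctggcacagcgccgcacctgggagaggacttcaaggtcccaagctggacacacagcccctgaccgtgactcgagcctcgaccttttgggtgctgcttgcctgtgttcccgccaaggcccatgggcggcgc
Cst9 (chr2:148834897-148835146, plus strand): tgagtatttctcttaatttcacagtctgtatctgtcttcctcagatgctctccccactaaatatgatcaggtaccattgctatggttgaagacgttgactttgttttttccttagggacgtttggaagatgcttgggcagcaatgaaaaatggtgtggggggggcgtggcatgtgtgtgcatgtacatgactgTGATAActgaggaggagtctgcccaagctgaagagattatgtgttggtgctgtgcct
Rspo1 (chr4:124986180-124986429, plus strand): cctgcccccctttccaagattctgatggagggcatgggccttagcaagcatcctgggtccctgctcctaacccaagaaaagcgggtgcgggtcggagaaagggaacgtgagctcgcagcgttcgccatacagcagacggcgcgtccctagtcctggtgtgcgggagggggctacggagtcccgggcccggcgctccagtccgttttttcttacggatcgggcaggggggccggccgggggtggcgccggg
Both strands of the 250 bases before a start site were searched. The letters were AAGGTCA for the receptor SF1 and AACAAT for proteins of the SOX family. GATA factors were represented by AGATAA and, as an equal choice, by TGATAA. Forkhead proteins were represented by GTAAACA and the TCF and LEF factors by TCAAAG, and none of these words contains another. Hsd3b1 holds a GATA match on the opposite strand, with its first base 134 bases before the start site, and Cst9 holds one on the same strand at 57 bases. A list gene was counted if any of its windows matched, so counts of genes and shares of windows are unlike measures. GATA letters occurred in 16.6% of all 32851 windows. They occurred in 5 of 18 Leydig, 4 of 15 Sertoli, 2 of 19 pregranulosa and 0 of 16 cholesterol genes with an entry. SF1 letters occurred in 4.08% of all windows, in 1 of 18 Leydig genes and 0 of 15 Sertoli genes. TCF and LEF letters occurred in 13.8% of windows, in 5 of 18 Leydig and 0 of 15 Sertoli genes. For SOX letters these were 9.42%, 1 of 18 and 0 of 15, and for forkhead letters 3.17%, 2 of 18 and 1 of 15. Of 19 pregranulosa genes, SF1 letters occurred in 1, SOX in 1, TCF and LEF in 2 and forkhead in 0. Of 16 cholesterol genes, these counts were 2, 1, 1 and 0. A match describes the letters only.

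Cholesterol synthesis and uptake genes fell together. Of 25 measured genes 23 fell, with a median of -1.18, and the other two were Npc1 (0.22, adjusted p = 0.06) and Soat1. Without female replicates 1 and 2, 22 fell. Fdps, farnesyl diphosphate synthase, read 393, 286 and 380 CPM in male soma and 54.7, 69.0 and 62.7 in female soma. Dhcr7, which makes cholesterol from its last precursor, read 221, 149 and 200 CPM against 33.8, 29.8 and 35.5. Hmgcs1, an early enzyme of the pathway, read 720, 545 and 633 CPM against 197, 188 and 220. Male replicate 2 was the lowest male library for each of these, as it was for Star and Cyp17a1. In female soma these 3 genes kept 29.8 to 220 CPM.

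Hedgehog signalling passes from Dhh to the receptor Ptch1 and the factor Gli1, which are also targets of the pathway. Of 12 measured genes 5 fell, among them Dhh, Ptch1, Gli1 and Hhip, and Gas1 rose. Without female replicates 1 and 2, 5 fell and 2 rose. Hhip, an inhibitor induced by the pathway, read 149, 229 and 193 CPM in male soma and 7.89, 9.05 and 8.77 in female soma (difference -3.62 ± 0.28). Ptch1 read 300, 315 and 291 CPM against 65.2, 67.5 and 73.5 (-1.71 ± 0.07). Smo, the signal transducer, read 306 to 311 CPM in male and 232 to 331 CPM in female soma (-0.13, adjusted p = 0.39). Gas1, a co-receptor, was 2.11-fold higher in female soma (0.86 ± 0.16, adjusted p = 0.0014). Gli1 is named for the count and was chosen after its values were seen, as are such genes below.

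Cord and peritubular genes also differed. Col4a1, a basement membrane collagen chain, read 3243, 3138 and 3006 CPM in male soma and 454, 421 and 504 in female soma. Col4a2, its partner chain, read 1846, 1779 and 1733 CPM against 328, 294 and 345. The ratios of 6.81 and 5.54 were far outside the spread of either group. Of 19 basement membrane genes 10 fell and Lama5 rose (1.39), and 7 fell without female replicates 1 and 2. Acta2, the smooth muscle actin of peritubular and vessel cells, read 287, 209 and 248 CPM in male soma and 50.0, 54.5 and 82.1 in female soma. In that smooth muscle and peritubular list, 6 of 11 genes fell and Rgs5 (1.67) and Synpo2 (0.52) rose, and 3 fell without female replicates 1 and 2.

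**Figure D3:**
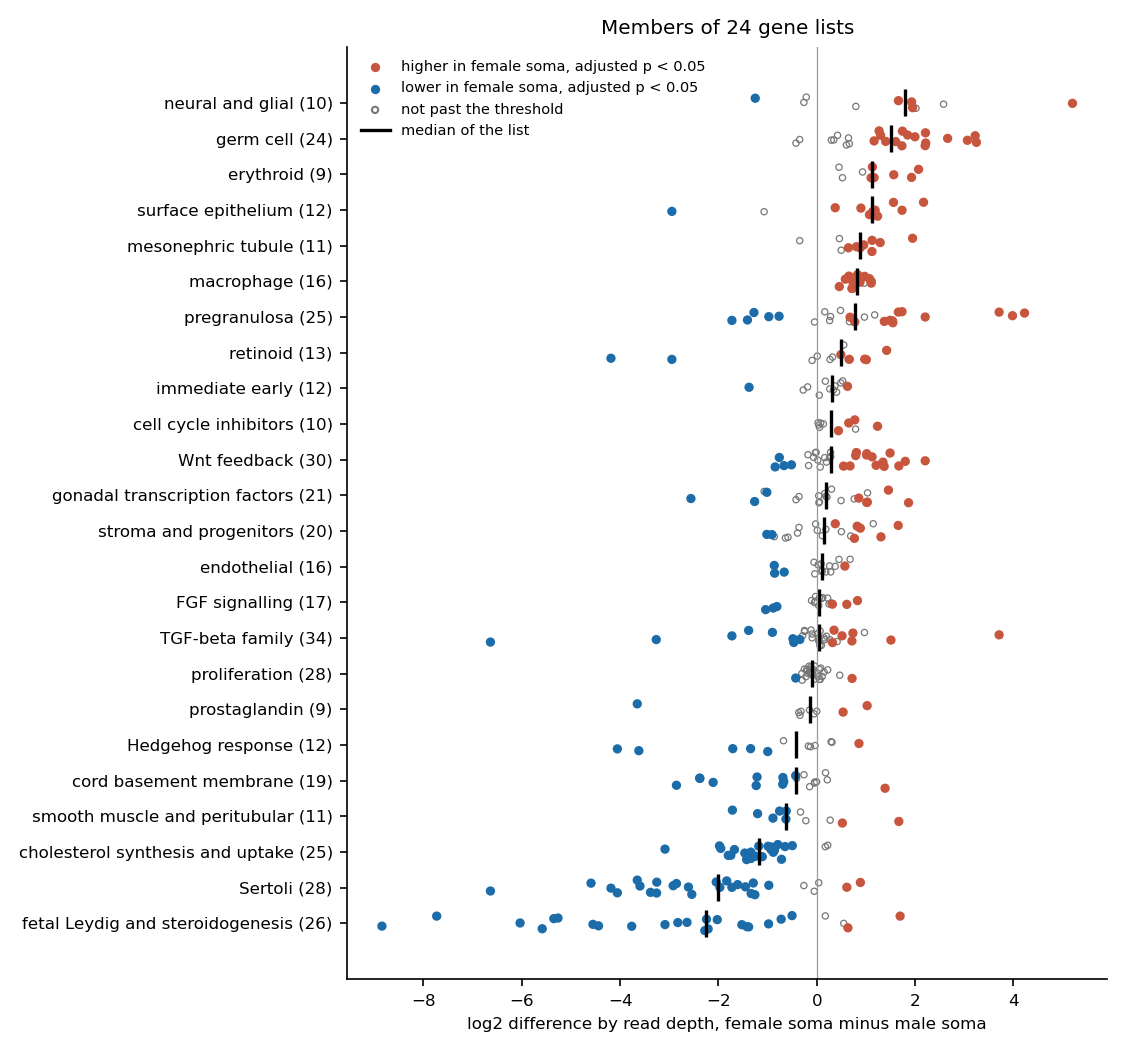
Read depth log2 differences (female minus male soma) for every autosomal member of 24 lists, with filled points past the adjusted p of 0.05, open points not past it, black bars at list medians and the number of members in parentheses. The Leydig and Sertoli medians (-2.26 and -2.01) were the lowest, and the lists with the highest medians were those of neural, germ cell and erythroid genes.

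Pregranulosa genes were mixed. Of 25 measured autosomal genes 12 rose, 5 fell and 8 did not pass, with a median of 0.77, and 13 rose without female replicates 1 and 2. Summed levels were 1733 to 1951 CPM in female soma and 1070 to 1187 CPM in male soma. Irx3, an Iroquois factor of the fetal ovary, read 82.2, 70.4 and 62.3 CPM in female soma and 0.655, 0.565 and 2.07 in male soma, the largest pregranulosa difference at 4.23 ± 0.20. Its neighbour Irx5 read 13.3, 8.90 and 6.74 CPM against 0.328, 0.444 and 0.489. Gng13, a G protein gamma subunit, read 7.78, 7.82 and 6.74 CPM against 0, 0.0403 and 0.435. Its difference was 1.54 by read depth and 6.01 in the whole reads, an example of the compression at low levels. Runx1, a factor that supports pregranulosa identity, read 58.1, 61.1 and 79.7 CPM against 11.1, 16.1 and 16.6.

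Foxl2os, the antisense transcript whose annotated start overlaps the first bases of Foxl2, was chosen after its values were seen. It read 27.8, 28.2 and 19.5 CPM in female soma and 0.765, 1.13 and 2.18 in male soma (difference 2.43 ± 0.16, adjusted p = 1.3e-07). Its ratio of means was 18.5, against 51.8 for Foxl2. No source used here states the strand setting of the counting, so reads from the overlap cannot be told apart.

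Several pregranulosa genes had separate groups yet missed the threshold in the fit over all libraries. Kitl, the ligand of the germ cell receptor Kit, read 185, 202 and 196 CPM in female soma and 70.1, 70.5 and 69.9 in male soma. Its difference of 1.18 ± 0.47 had an adjusted p of 0.09 in the 12-library fit and 2.8e-06 with the 6 soma libraries alone. Amhr2, the receptor for anti-Müllerian hormone, read 143, 122 and 131 CPM against 48.8, 71.1 and 51.2, with adjusted p-values of 0.057 and 0.00045 in the 2 fits. Igfbp2, an insulin-like growth factor binding protein, had adjusted p-values of 0.052 and 0.011. Wnt4 (0.26), Lef1 (0.28), Bmp2 (0.16) and Fgfr2 (-0.05) passed in neither.

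The 5 list members that fell were Inhbb, Dmrt1, Hsd17b7, Gpx3 and Esr2. Inhbb, the inhibin beta B chain, read 124, 104 and 117 CPM in male soma and 21.6, 26.8 and 26.2 in female soma. Inhbb and Dmrt1 also stand in the Sertoli list, and Hsd17b7 in the cholesterol list. Esr2, an oestrogen receptor of later granulosa cells, read 6.45, 8.39 and 6.53 CPM in male soma and 0.778, 0.921 and 1.91 in female soma.

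Wnt signalling was described by ligands, inhibitors and feedback targets. Of 30 genes 14 rose, 4 fell and 12 did not pass, with a median of 0.28, and 16 rose without female replicates 1 and 2. Among agonists, Rspo1, which amplifies Wnt signals in the ovary, read 77.8, 52.8 and 55.1 CPM in female soma and 18.9, 12.8 and 11.9 in male soma. Rspo3, a related agonist, read 33.6, 25.2 and 45.1 CPM against 12.8, 9.48 and 10.2. Wnt4 itself read 187, 131 and 205 CPM against 168, 126 and 116, and the groups overlapped. Wnt5a, a ligand of other Wnt branches, fell, with 317, 191 and 364 CPM in female and 552, 593 and 505 in male soma (-0.85 ± 0.20, adjusted p = 0.0081, and 0.217 without female replicates 1 and 2).

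Many feedback targets of beta-catenin rose. Lgr5, a receptor for R-spondins, read 49.3, 59.5 and 43.2 CPM in female soma and 4.48, 5.24 and 8.27 in male soma, an 8.46-fold ratio. Sp5, a direct target, read 12.4, 18.4 and 15.0 CPM against 2.29, 1.29 and 1.85. Axin2, which restrains the pathway, read 105, 71.6 and 109 CPM against 44.7, 52.0 and 53.0. Notum, Nkd1, Nkd2, Rnf43 and Apcdd1, all inhibitors known as targets, rose by 1.21, 0.79, 1.34, 1.02 and 1.37. Znrf3 (0.20) and Lef1, likewise targets, did not pass. Ctnnb1, beta-catenin, did not pass (-0.17, adjusted p = 0.10), with 935 to 1214 CPM in female and 1176 to 1234 in male soma. Besides Wnt5a, the genes that fell were Lrp5 (-0.52), Dkk3 (-0.67) and Wif1 (-0.76), and Lrp5 did not pass without female replicates 1 and 2 (adjusted p = 0.107), nor Dkk3 without male replicate 1 (0.0515).

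**Figure D4:**
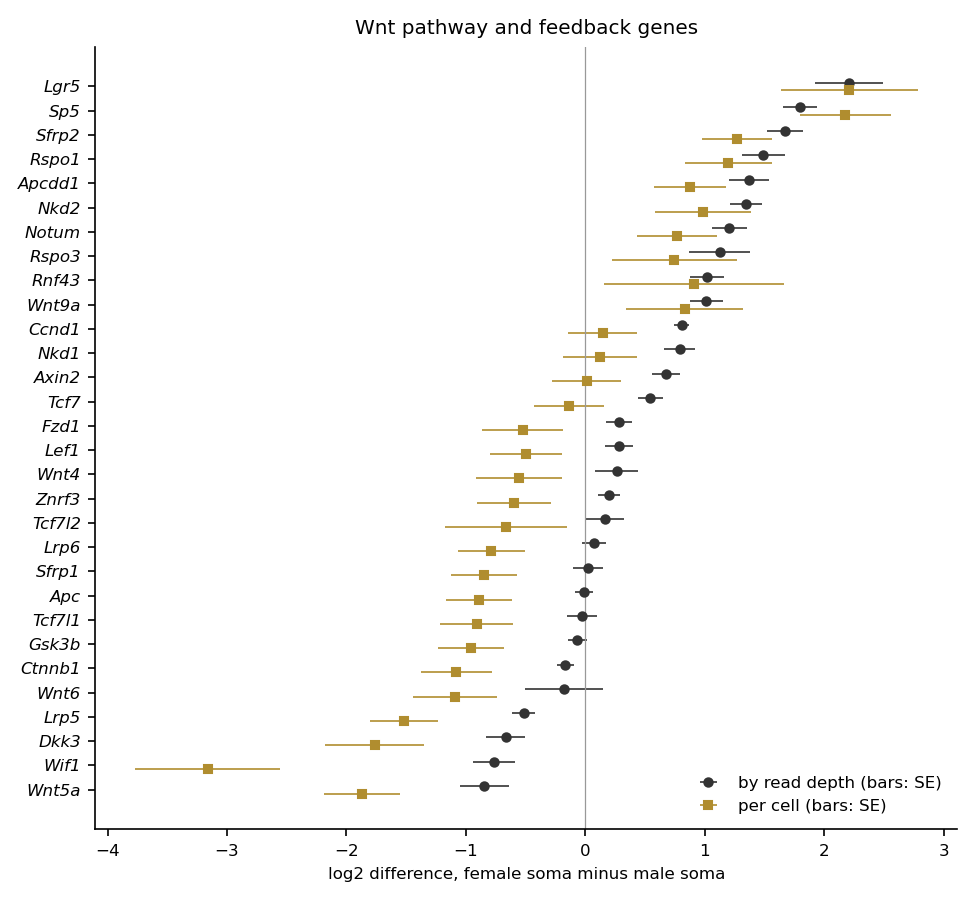
Log2 differences (female minus male soma) with SE for 30 Wnt genes on the read depth scale (circles) and per cell (squares), ordered by the read depth value. Lgr5 and Sp5 lay above 1.5 on both scales, and genes with a read depth difference near 0 lay near -0.86 per cell.

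Shared gonadal transcription factors were not uniform either. Of 21 genes 5 rose, among them Hoxa10, Hoxa11, Osr1 and Nr6a1, and 3 fell, Nr5a1, Gata4 and Tcf21. Nr6a1 differed by 0.26 and did not pass when female replicates 1 and 2 were left out. Without female replicates 1 and 2, 5 rose and 2 fell. Nr5a1, the regulator of steroidogenic genes also called SF1, read 577, 486 and 586 CPM in male soma and 76.4, 57.7 and 70.4 in female soma (-2.56 ± 0.45, adjusted p = 0.00087). Gata4, a partner factor in both sexes, read 347, 399 and 359 CPM against 122, 117 and 158 (adjusted p = 0.011, and 0.221 without female replicates 1 and 2). Tcf21 had an adjusted p of 0.018 and lost the call without male replicate 1 (0.0574), male replicate 2 (0.0645), female replicate 1 (0.0516) or female replicate 2 (0.0691). Wt1, needed for gonad formation, read 305, 224 and 352 CPM in female soma and 131, 162 and 161 in male soma. Wt1, Emx2 and Lhx9 did not pass in the 12-library fit (0.13, 0.087 and 0.093) and did with the soma alone (0.0038, 0.0012 and 0.00075).

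Ligand balance of the TGF-beta family differed member by member. Of 34 genes 7 rose and 8 fell, with a median of 0.05, and 4 rose and 5 fell without female replicates 1 and 2. Inha, the inhibin alpha chain, read 430, 320 and 386 CPM in male soma and 28.6, 23.6 and 21.0 in female soma (-3.26 ± 0.20). Inha, Inhbb and Amh were high in male soma, whereas the antagonist Fst was high in female soma.

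Retinoid genes moved in both directions. Cyp26b1, which degrades retinoic acid in the testis, read 312, 396 and 367 CPM in male soma and 9.78, 7.67 and 13.4 in female soma, a 34.9-fold ratio. Aldh1a1, a retinal dehydrogenase, read 660, 691 and 714 CPM against 64.0, 70.1 and 50.3. Both stood far apart between the groups, and they were the 2 genes of 13 that fell. The 5 that rose were Crabp1 (1.42), Crabp2 (1.01), Stra6 (0.98), Rdh10 (0.66) and Rarg (0.49), and 4 rose and 2 fell without female replicates 1 and 2.

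Surface epithelium genes rose in female soma in 10 of 12 cases, with a median of 1.12, and in 10 without female replicates 1 and 2. Podxl, an anti-adhesive surface protein, read 379, 380 and 471 CPM in female soma and 47.0, 93.8 and 59.9 in male soma. Bnc1, a zinc finger protein of mesothelium, read 36.1, 22.1 and 36.6 CPM against 2.51, 7.91 and 6.91. The exceptions were Aldh1a1, which fell, and Lhx9. Proliferation genes gave 1 rise, Ccne1 (0.72), and 1 fall, Cenpe (-0.43), among 28, fewer than the background shares, and 1 rise passed without female replicates 1 and 2.

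Outside the lists, the largest falls included Cbln1 and Prokr2. Cbln1, a secreted cerebellin, read 444, 483 and 444 CPM in male soma and 2.22, 1.99 and 3.31 in female soma (-5.91 ± 0.13). Prokr2, a prokineticin receptor, read 106, 126 and 134 CPM against 1.78, 0.614 and 0.890. Chrm4, a muscarinic receptor, was a large rise, with 63.1, 51.4 and 50.9 CPM in female soma and 1.09, 1.65 and 1.36 in male soma (3.57 ± 0.18). These genes did not overlap between the groups, which largely follows from their choice among the largest differences. The remaining large rises, Gap43, Miat, Dbh, Stra8, Smc1b and Rec8, were lower in female replicate 3 than in the other female libraries. Stra8, which starts meiosis, read 10.1, 40.8 and 0.254 CPM in female soma and 0.0807 to 0.163 in male soma, and about 564 CPM in female germ cells. Stra8 lost the call without female replicate 1 (limma adjusted p = 0.0503) and in the whole reads (0.192). Smc1b lost it in the whole reads (0.127). Without female replicates 1 and 2 the differences were 0.54 for Stra8 and 1.79 for Miat.

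Per cell the background shifted. Of the autosomal genes 331 (2.69%) were higher and 7886 (64.0%) lower in female soma, and the median difference was -0.86. All genes of a library share its scaling to cell number, so these calls are not independent of each other. With the soma libraries fitted alone, 220 genes were higher and 3281 lower. The library medians were 3.76 ± 0.19 (SD, n = 3) in female and 4.64 ± 0.55 (SD, n = 3) in male soma, a difference of -0.88 ± 0.33 (SE). The 3 female medians lay below the 3 male ones (two-sided exact permutation p = 0.10, the smallest that 3 against 3 can give). Male soma replicate 3 was the highest library, and without it the difference was -0.57 and the counts 470 and 5937.

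Sertoli and Leydig genes lay below that shift and pregranulosa genes above it. Sertoli genes had a per cell median of -3.54, which is -2.69 relative to all genes, and 25 of 28 fell. Leydig genes had a median of -4.40 (-3.54 relative to all genes), with 23 of 26 lower and Lhx2 higher. Pregranulosa genes had a median of 0.12 (0.97 above all genes), with 10 of 25 higher and 6 lower. Foxl2, Fst and Irx3 were higher per cell by 4.82 ± 0.68, 4.14 ± 0.49 and 5.32 ± 0.54. Axin2 and Cdkn1b, which rose by read depth, stood at 0.01 (adjusted p = 0.98) and 0.12 (adjusted p = 0.74) per cell.

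**Figure D5:**
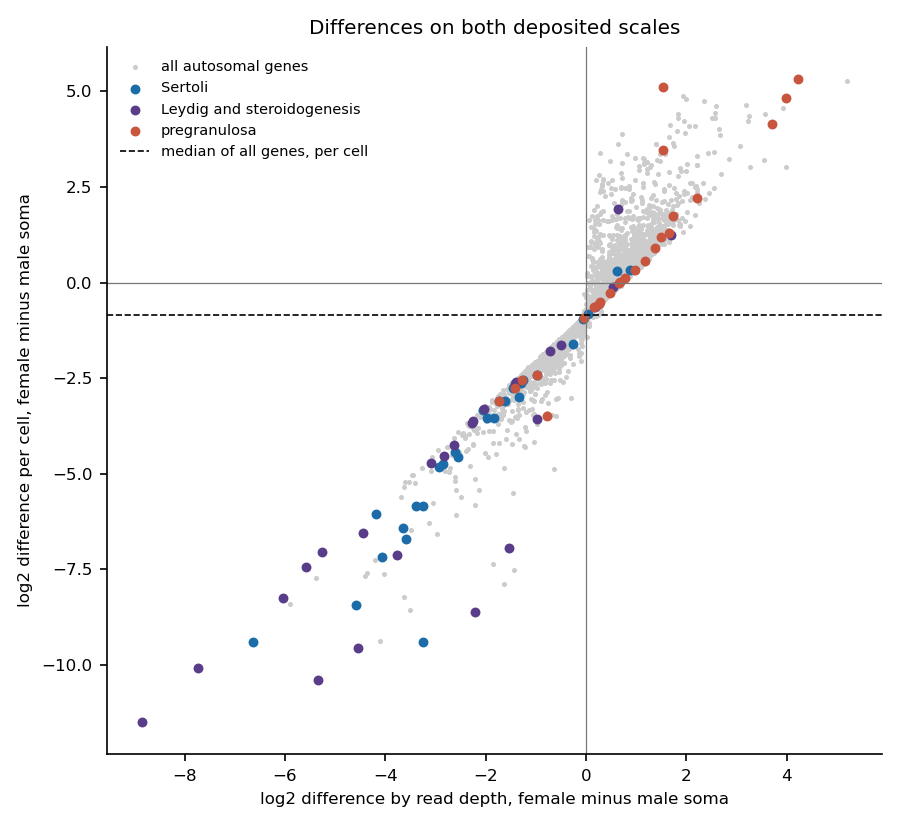
Read depth log2 difference (x) against per cell log2 difference (y), female minus male soma, for 12314 autosomal genes in grey with members of the Sertoli, Leydig and pregranulosa lists coloured, and a dashed line at the per cell median of -0.86. Sertoli and Leydig members run to the lower left, where Cyp17a1 is at -8.84 and -11.50, and Irx3, Foxl2 and Fst lie at the upper right.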

How the data were processed

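RNA was measured in 12 libraries of sorted mouse gonad cells, of which the 6 soma libraries are compared, grouped by sample title. The authors deposited 2 tables of log2 values, one scaled to cell number and one to read depth. The submitters' processing notes name build mm10 and, without roles, limma 3.28.14, edgeR 3.14.0, DESeq2 1.12.3, HTSeq 0.6.1p1, TopHat2 2.0.9, Trim Galore 0.4.0 and R 3.3.0. The read depth transform, annotation, gene filter and strand setting remain unstated in the sources used here. The name of the cell number table was read as an abbreviation, and the scaling was not checked against spike-in reads.

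Whole reads were recovered from the deposited cell number log2 values within a tolerance of 0.001 reads in every library and gave CPM, so limma's voom on these reads served as an alternative. Every gene had at least 5.07 CPM in 3 libraries, and floors cover counting error only. Genes were placed with GENCODE vM21 symbols (12409 current, 391 older). Within a group, replicates differed by more than sampling noise, at 10.1 to 23.7 chi-square units per degree of freedom. No label names a batch.

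limma 3.58.1 in R 4.3.3 fitted 4 group means to all 12 libraries with an intensity trend. Benjamini-Hochberg adjustment covered 12845 genes, and X and Y genes were dropped afterwards. Alternatives were leaving out each library, the soma alone, no lowest 25% of genes, a difference of at least 1, other normalizations and weights, and a replicate block. Library medians were compared with exact permutation tests in scipy 1.17.1. The members and lists were chosen with earlier results of these data known. Named genes are the markers, any member of the Sertoli, Leydig, pregranulosa, Wnt and transcription factor lists, the 2 highest and 3 most different members of other lists, and the 10 largest rises and falls without gene models, small RNAs and pseudogenes. A few list members are counted but not reported here by name.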

Additional observations from a re-analysis of the deposited data

How the results depend on the processing

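By read depth, leaving out 1 library gave 1150 to 1629 higher and 997 to 1390 lower autosomal genes. Leaving out female soma replicates 1 and 2 gave 680 and 699, leaving out the lowest 25% of genes 832 and 946, and a difference of at least 1 gave 393 and 329. Array weights gave 2202 and 1880, and the table scaled to cell number gave 331 and 7886. Per cell, leaving out 1 library gave 223 to 470 higher and 4902 to 8579 lower genes, and the fewest lower genes came without female soma replicate 2. Leaving out female replicates 1 and 2 gave 51 and 473, the soma alone 220 and 3281, and the genes above the lowest 25% gave 121 and 7405. Median centring gave 1218 and 1024, quantile normalization 1541 and 1411, array weights 1074 and 8983, and a difference of at least 1 gave 286 and 3710. Without 1 library the difference of library medians ran from -1.05 to -0.57. Its two-sided exact permutation p was 0.20 each time, the smallest this test can give with 1 library left out. Over genes above the median level the difference was -0.90.

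Dropping the lowest 25% of genes tests fewer list members, which left 9 Sertoli and 10 Leydig genes lower and 5 pregranulosa genes higher. How many members of each list stayed was not counted. Of the 117 named genes 67 stayed, and each of these was called as in the main fit. The table scaled to cell number gave 7 Wnt genes as higher. Of 117 named genes, 3 passed on at least 1 of the 2 scales and had the opposite sign on the other: Etv5 (-0.82), Soat1 (-0.65) and Tcf7 (-0.14), given per cell.

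Soma replicate numbers were not paired in the main fit. Same-numbered libraries had correlations of deviations from the group mean of -0.123, -0.195 and -0.366. The deviations of a group cancel out, so these values cannot decide whether same-numbered libraries belong together. A replicate block gave 1489 higher and 1263 lower genes by read depth and 335 and 8162 per cell, and 14 pregranulosa genes were higher under it. Each same-numbered correlation was the lowest of its female library.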
